A study of Mirounga angustirostris with 8 samples.

Results

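Integrin and laminin subunit genes were examined in RNA sequencing of northern elephant seal (NES) skeletal muscle. They were taken by gene symbol from the deposited count table: the integrin alpha and beta chains and the laminin alpha, beta and gamma chains with at least 80 reads summed over the 8 libraries. Of 24338 named genes, 37 had such a symbol and 35 reached 80 reads, with 18 integrin alpha, 8 integrin beta and 9 laminin chains. The lowest members were ITGB3 (121 reads) and ITGA2 (135 reads), and LAMA1 and LAMC3 fell below the minimum with 6 reads each. LAMA3 was not analysed here. The muscle was the longissimus dorsi of adult female NES, biopsied while the animals were ashore for the yearly molt, when they fast and move little. Post-molt libraries (seals 4448, 5572, 9678 and X410) came from later biopsies, with a mean interval of 34 days between samplings in the study as a whole, and pre-molt libraries (seals 5572, 5842, 6762 and C497) from biopsies within 5 days of arrival. Of the 7 seals, only seal 5572 gave both a post-molt and a pre-molt library, and the comparison was therefore unpaired. Reads were counted on the genes of a related species, the Hawaiian monk seal. The comparison asks whether the receptors and the matrix that anchor the muscle cell differ in expression after a month of fasting and reduced activity.

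Integrins are receptors of the cell membrane made of 1 alpha and 1 beta chain, and they tie the cytoskeleton to proteins outside the cell. Laminins are large proteins of the basement membrane, each built from an alpha, a beta and a gamma chain. In mouse and human muscle, the fibre is held to a laminin that contains the LAMA2 chain by an integrin made of ITGA7 and ITGB1 and by the dystrophin complex, and force passes from the fibre to the matrix through both. Blood vessels of muscle have basement membranes with LAMA4 and LAMA5.

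The libraries held 30774895 to 61229829 counts post-molt and 37905311 to 56150332 pre-molt. The member genes took 0.0804 to 0.139% of the counts of a library. Library 9678 (post-molt) had a count for 12676 genes, the fewest, and library 5572 (post-molt) for 18044 genes, the most. Summed markers of muscle fibres reached 195870 to 282920 CPM (counts scaled to library size) post-molt and 215150 to 332590 CPM pre-molt, with 16 of the 18 listed genes found by symbol and counted in every library. The sum hides differences between genes. TNNT3 had 4089 and 2857 CPM in pre-molt 5842 and C497, against 40.1 and 45.0 CPM in pre-molt 5572 and 6762 and 82.1 to 392 CPM post-molt. TNNI2, MYLPF and ATP2A1 were also highest in pre-molt 5842 and C497. TNNT1 was highest in pre-molt 5842 (10744 CPM) but lowest in pre-molt C497 (4940 CPM). The part of the split in TNNT3, TNNI2, MYLPF and ATP2A1 in the member values was not tested. Summed fibroblast markers were 1074 to 1287 CPM post-molt and 923 to 2401 CPM pre-molt, with the highest value in pre-molt library 5842. All levels are CPM with library sizes scaled by the TMM method, and all fold changes are log2 of post-molt over pre-molt with a standard error (SE). In biopsies of mixed cells, fewer cells of a type and less RNA per cell cannot be told apart. Levels were compared within a gene only, since longer transcripts collect more reads.

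No integrin or laminin gene passed the threshold. Of the 34 members tested, 0 had an adjusted p under 0.05 in the edgeR quasi-likelihood test, where 0.349% of the 14312 genes tested passed, and the smallest edgeR adjusted p of a member was 0.265. DESeq2 gave an adjusted p to 22 members and called 0, against 6.52% of the 9991 genes to which it gave one, and limma-voom called 0 of 34, against 0.657% of all genes tested. At an edgeR unadjusted p under 0.05, 2 members were lower post-molt (LAMA4 and ITGB1), where 6.22% of all genes tested were lower, and 0 were higher, where 5.2% of all genes were. DESeq2 gave an unadjusted p under 0.05 to 2 members, both lower. The groups failed to overlap in 0 members, whereas they failed to overlap in 9.16% of all genes tested. The median log2 fold change was -0.03 over the members, with 16 above 0 and 18 below, and -0.04 over all genes tested. The median size of the fold change, regardless of sign, was 0.353 log2 units for the members and 0.366 for all genes. Of the members, 21 had a mean of 10 CPM or more. Their 95% intervals reached 0.415 to 1.09 log2 units to each side of the estimate, and those of the other 13 tested members 1.24 to 4.60. These intervals are not adjusted over genes, and LAMA4 and ITGB1 did not pass although their intervals excluded 0. With 4 libraries a group, differences inside these limits, and some beyond them, could therefore have been missed.

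**Figure D1:**
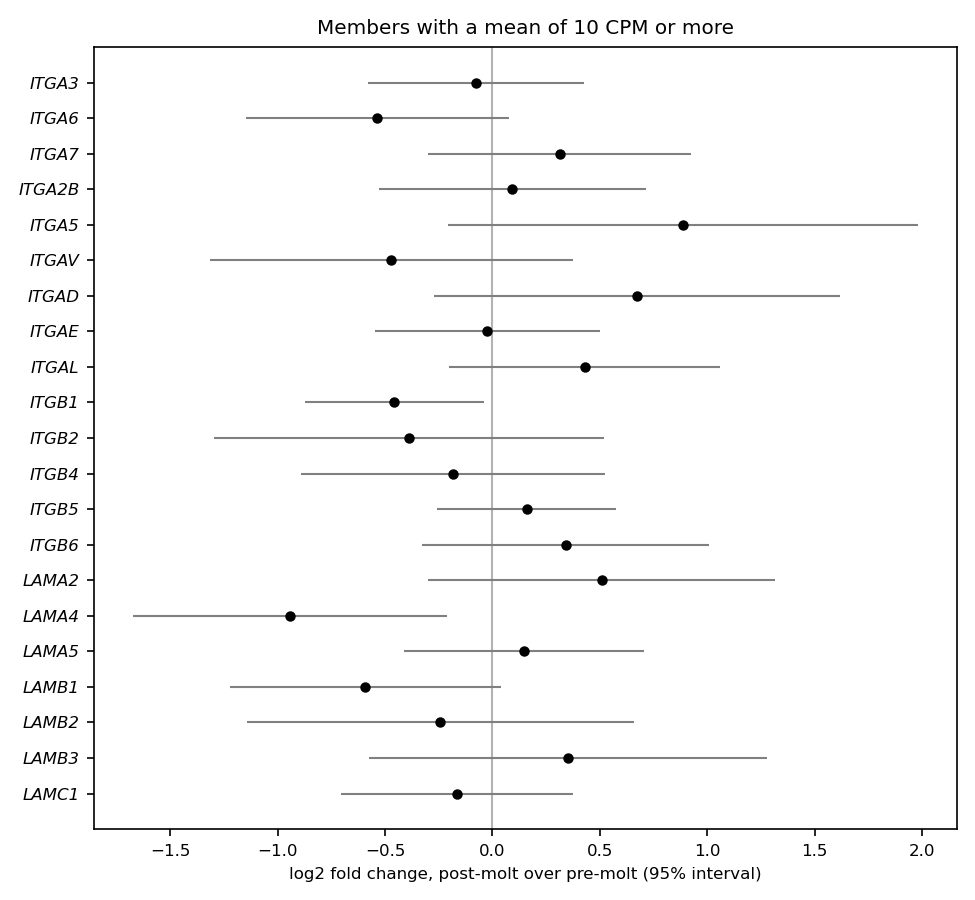
Log2 fold change, post-molt over pre-molt, of the 21 members with a mean of 10 CPM or more (points, edgeR) with their 95% intervals (lines). The intervals of LAMA4 (-1.67 to -0.21) and ITGB1 (-0.87 to -0.04) lie below 0, and neither gene passed after adjustment over all genes.

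Among the laminin alpha chains, LAMA2 and LAMA4 had fold changes of opposite sign. LAMA2, the alpha chain of the muscle fibre's own basement membrane, had 21.9, 17.7, 25.9 and 29.8 CPM in post-molt libraries 4448, 5572, 9678 and X410, against 6.64, 27.6, 12.2 and 20.6 CPM in pre-molt libraries 5572, 5842, 6762 and C497. The lowest values were those of pre-molt 5572 and 6762, whereas pre-molt 5842 lay above 3 of the 4 post-molt libraries. The log2 fold change was 0.51 ± 0.37 (SE; 95% interval -0.30 to 1.32, edgeR adjusted p = 0.694).

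LAMA4, an alpha chain of vessel walls and of the matrix around fat cells and nerves, had 13.9, 10.4, 8.74 and 20.8 CPM in the post-molt libraries in the same order, against 19.9, 40.3, 16.9 and 26.5 CPM in the pre-molt libraries. Post-molt 4448, 5572 and 9678 lay below every pre-molt library, and post-molt X410 lay above pre-molt 5572 and 6762. The log2 fold change was -0.94 ± 0.34 (edgeR unadjusted p = 0.0156, adjusted p = 0.265, DESeq2 adjusted p = 0.112). Without pre-molt library 5842, the highest for LAMA4 and for the fibroblast markers, it was -0.62 with an edgeR unadjusted p of 0.0847, and without pre-molt 5842 and post-molt 9678 it was -0.46 with an edgeR unadjusted p of 0.175. Over the 8 fits that left out a single library the edgeR unadjusted p ranged from 0.00372 to 0.0847. Summed endothelial markers were 471 to 548 CPM post-molt and 509 to 655 CPM pre-molt. Summed adipocyte markers were 237 to 484 CPM post-molt and 275 to 406 CPM pre-molt, and 5 of the 7 tested had a fold change below 0, with a median of -0.79. Among them, CIDEC, a lipid droplet protein, averaged 5.38 ± 3.02 CPM post-molt and 26.3 ± 13.4 CPM pre-molt (SD, n = 4 each, edgeR adjusted p = 0.0542, DESeq2 adjusted p = 0.000162). The 2 others had a fold change above 0. PLIN4, 1 of these, averaged 280 ± 108 CPM post-molt and 162 ± 25.4 CPM pre-molt (SD, n = 4 each). Its log2 fold change was 0.79 ± 0.27 (edgeR unadjusted p = 0.0137, DESeq2 adjusted p = 0.0691), and it did not pass after adjustment in either test. Summed Schwann cell markers were 68.8 to 87.0 CPM post-molt and 94.5 to 136 CPM pre-molt, without overlap. The part of these cell types in the LAMA4 values was not tested.

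LAMA5, the other alpha chain of vessel basement membranes, had 87.0, 66.9, 111 and 51.4 CPM post-molt, against 66.2, 51.2, 77.5 and 90.8 CPM pre-molt. The groups overlapped from 51.4 to 90.8 CPM. LAMA5 had a log2 fold change of 0.15 ± 0.26 (95% interval -0.41 to 0.70, edgeR adjusted p = 0.909).

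Of the beta chains, LAMB1 and LAMB2 are the usual partners of LAMA2 and LAMA4, and LAMB2 is concentrated at the neuromuscular junction in mouse and human muscle. LAMB1 had 26.0, 26.5, 14.9 and 30.1 CPM post-molt, against 25.3, 57.0, 34.7 and 30.2 CPM pre-molt. Post-molt 9678 was the lowest and pre-molt 5842 the highest, and pre-molt 5572 lay below 3 post-molt libraries. For LAMB1 the log2 fold change was -0.59 ± 0.29 (95% interval -1.22 to 0.04, edgeR unadjusted p = 0.0633, adjusted p = 0.479).

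LAMB2 had 123, 115, 117 and 67.5 CPM post-molt, against 61.0, 214, 49.0 and 176 CPM pre-molt. The pre-molt libraries split into 2 high and 2 low values, and all 4 post-molt libraries lay between them. For LAMB2 the fold change was -0.24 ± 0.41 (edgeR adjusted p = 0.904), and without pre-molt 5842 it was 0.16. LAMB3, a beta chain of epithelial basement membranes, had a log2 fold change of 0.35 ± 0.43 (edgeR adjusted p = 0.851), with 10.02 to 46.7 CPM post-molt and 10.9 to 36.4 CPM pre-molt.

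LAMC1, the gamma chain of nearly all laminins outside epithelia, had 95.3, 104, 154 and 149 CPM post-molt, against 92.0, 124, 177 and 171 CPM pre-molt. The groups overlapped along almost their whole range. Its log2 fold change was -0.16 ± 0.25 (95% interval -0.70 to 0.38, edgeR adjusted p = 0.890). LAMB4, a beta chain, was scarce, with 0 to 1.61 CPM post-molt and 0.185 to 1.32 CPM pre-molt.

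**Figure D2:**
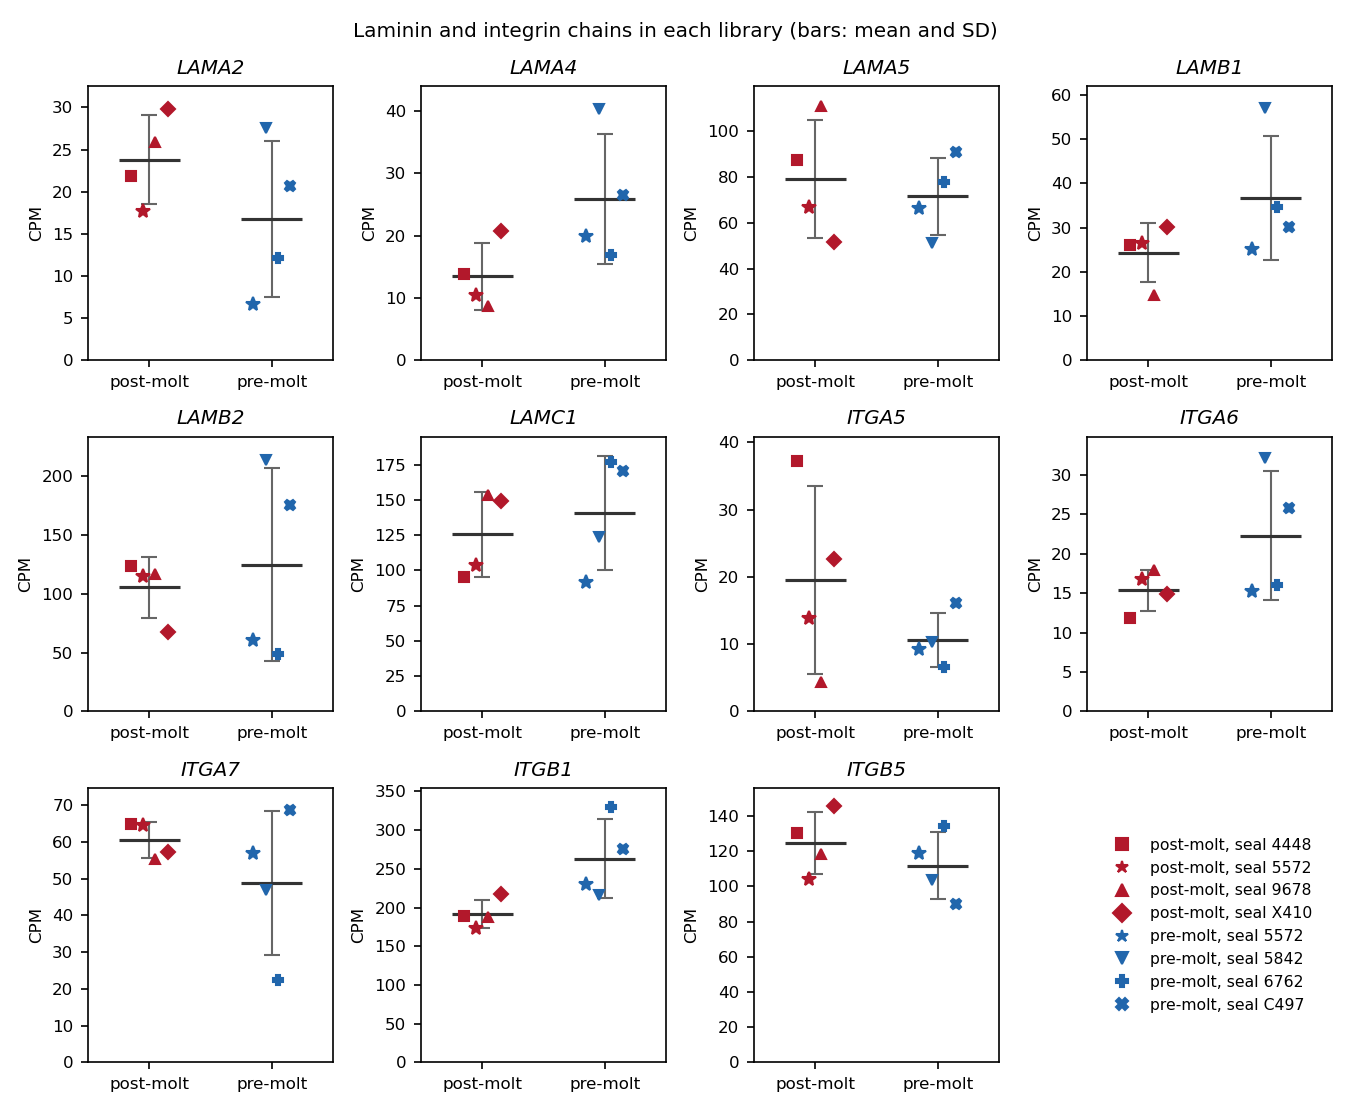
CPM of the 11 chains described library by library, with post-molt (red) left of pre-molt (blue), 1 symbol per seal, and bars for the mean and SD of 4 libraries. The groups overlap in every panel. In LAMA4 and ITGB1, 3 of the 4 post-molt libraries lie below all pre-molt libraries.

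Counts of 2 chains were also set against each other within a library, which removes the scaling between libraries. The ratio of LAMA4 to LAMA2 counts was 0.636, 0.592, 0.338 and 0.698 in post-molt libraries 4448, 5572, 9678 and X410, against 3.0, 1.46, 1.39 and 1.29 in pre-molt libraries 5572, 5842, 6762 and C497. All 4 post-molt libraries lay below all 4 pre-molt libraries. The mean log2 ratio was -0.87 ± 0.47 post-molt and 0.74 ± 0.57 pre-molt (SD, n = 4 each), a difference of -1.62, with an exact two-sided permutation p of 0.0286. This is the smallest p that the 70 divisions of 8 libraries into 4 and 4 allow, and adjusted over the 4 ratios examined the exact p was 0.114, which did not pass. An adjusted value under 0.05 would have needed at least 3 of the 4 ratios at the smallest p. Seal 5572, sampled at both times, had ratios of 0.592 post-molt and 3.0 pre-molt, and the pre-molt ratio was the highest of all libraries. Without both of its libraries the difference was -1.37, and without pre-molt 5842 and post-molt 9678 it was -1.45. The absolute ratio depends on the lengths of the transcripts, so only differences between libraries can be read from it.

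The ratio of LAMB1 to LAMB2 differed by -0.57 log2 units, post-molt minus pre-molt (exact permutation p = 0.371, adjusted p = 0.495). Its log2 values were -2.12 ± 0.74 post-molt and -1.56 ± 0.88 pre-molt (SD, n = 4 each). The groups overlapped.

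**Figure D3:**
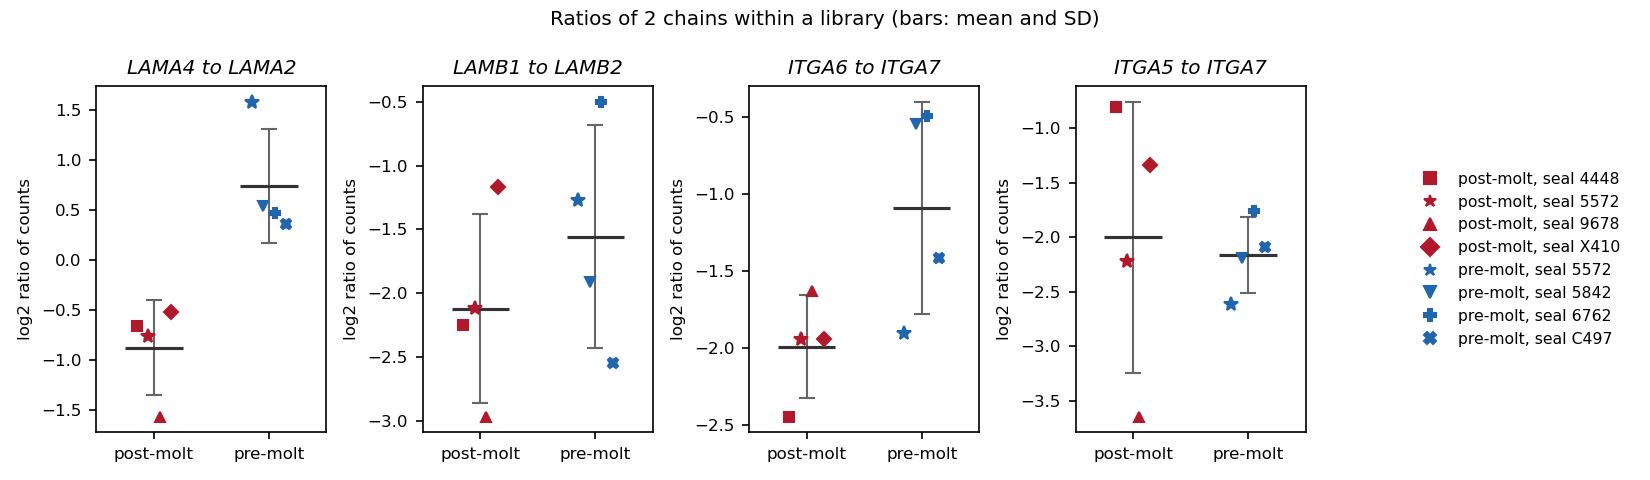
Log2 ratio of the counts of 2 chains within each library, with post-molt (red) left of pre-molt (blue), 1 symbol per seal, and bars for the mean and SD of 4 libraries. The LAMA4 to LAMA2 ratio is the one of the 4 in which the groups do not overlap.

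The alpha chains that bind laminin are ITGA3, ITGA6 and ITGA7. ITGA7, the laminin receptor chain of the muscle fibre, had 65.0, 64.7, 55.5 and 57.2 CPM post-molt, against 57.0, 46.9, 22.5 and 68.8 CPM pre-molt. The post-molt libraries lay close together and within the pre-molt range, and pre-molt 6762 stood below all others. For ITGA7 this gave a log2 fold change of 0.31 ± 0.28 (95% interval -0.30 to 0.92, edgeR adjusted p = 0.778).

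ITGA6, found on satellite cells, endothelium and nerve sheaths, had 11.9, 16.8, 17.9 and 14.9 CPM post-molt, against 15.2, 32.1, 16.0 and 25.8 CPM pre-molt. Pre-molt 5842 and C497 were above all other libraries, and pre-molt 5572 and 6762 were among the post-molt values. This gave ITGA6 a log2 fold change of -0.54 ± 0.28 (edgeR unadjusted p = 0.080, adjusted p = 0.531). The part of Schwann cells, whose summed markers did not overlap between the groups, in the ITGA6 values was not tested. ITGA3 had 17.2 to 30.2 CPM post-molt and 20.2 to 31.3 CPM pre-molt (log2 fold change -0.08 ± 0.23, edgeR adjusted p = 0.951). The ratio of ITGA6 to ITGA7 differed by -0.90 log2 units (exact permutation p = 0.0571, adjusted p = 0.114). It was -1.99 ± 0.34 post-molt and -1.09 ± 0.69 pre-molt (SD, n = 4 each), and pre-molt 5572 fell among the post-molt values.

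ITGB1, the beta chain that pairs with all alpha chains that bind laminin or collagen and with several others, had 189, 173, 188 and 217 CPM in post-molt libraries 4448, 5572, 9678 and X410, against 231, 216, 329.6 and 276 CPM in pre-molt libraries 5572, 5842, 6762 and C497. Post-molt X410 lay just above pre-molt 5842, and the other post-molt libraries lay below every pre-molt library. The log2 fold change was -0.46 ± 0.19 (95% interval -0.87 to -0.04, edgeR unadjusted p = 0.0346, adjusted p = 0.369, DESeq2 adjusted p = 0.115). It stayed below 0 in all 15 alternative fits, from -0.52 to -0.33, and the edgeR unadjusted p ranged from 0.0198 to 0.114 when a single library was left out. In seal 5572, ITGB1 had 173 CPM post-molt and 231 CPM pre-molt.

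ITGB5, a beta chain that pairs with ITGAV to bind vitronectin, had 131, 104, 118 and 146 CPM post-molt, against 119, 104, 134 and 89.8 CPM pre-molt. The groups overlapped, and the log2 fold change was 0.16 ± 0.19 (95% interval -0.26 to 0.57, edgeR adjusted p = 0.85). ITGB6, a partner of ITGAV known mainly from epithelia, had 27.7 to 68.2 CPM post-molt and 22.9 to 48.7 CPM pre-molt (0.34 ± 0.31, edgeR adjusted p = 0.778). ITGB4, the partner of ITGA6 in epithelial hemidesmosomes and on Schwann cells, had 20.2 to 40.4 CPM post-molt and 21.6 to 55.8 CPM pre-molt (-0.18 ± 0.33, edgeR adjusted p = 0.909). Of 12 keratinocyte markers, 9 were found by symbol (KRT14, KRT1 and LORICRIN were not used here). KRT10, KRT15 and IVL had 0 counts in every library, and the list summed to 6.22 to 12.9 CPM post-molt and 3.32 to 13.0 CPM pre-molt. Their part in the ITGB4 and ITGB6 values was not tested.

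Among alpha chains that recognise the RGD motif, ITGA5, the fibronectin receptor chain, had the widest relative spread over the 8 libraries of those with a mean of 10 CPM or more. It had 37.2, 13.9, 4.42 and 22.6 CPM post-molt, against 9.32, 10.3, 6.65 and 16.1 CPM pre-molt. Post-molt 4448 was the highest and post-molt 9678 the lowest of the 8 libraries. The log2 fold change was 0.89 ± 0.50 (95% interval -0.21 to 1.98, edgeR adjusted p = 0.570), and 0.37 without post-molt 4448. The ITGA5 to ITGA7 ratio differed by 0.16 log2 units (exact permutation p = 0.886, adjusted p = 0.886).

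ITGAV, which pairs with several beta chains, had 14.2 to 53.9 CPM post-molt and 24.5 to 57.4 CPM pre-molt (log2 fold change -0.47 ± 0.39, edgeR adjusted p = 0.744). ITGA2B, the platelet fibrinogen receptor chain, had 10.3 to 18.3 CPM post-molt and 8.75 to 17.6 CPM pre-molt (0.09 ± 0.29, edgeR adjusted p = 0.953). Its beta partner ITGB3 had 0 to 0.944 CPM post-molt and 0 to 0.761 CPM pre-molt. Platelet markers summed to 2.13 to 4.78 CPM post-molt and 3.2 to 5.54 CPM pre-molt. ITGA8, a receptor chain for nephronectin, had 0.535 to 4.36 CPM post-molt and 0 to 2.13 CPM pre-molt.

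The collagen-binding alpha chains were scarce in all libraries. ITGA1, ITGA2, ITGA10 and ITGA11 summed to 7.06 ± 0.647 CPM post-molt and 7.37 ± 3.001 CPM pre-molt (SD, n = 4 each). ITGA11, a chain of fibroblasts, was highest in pre-molt 5842 at 6.84 CPM, the library with the highest fibroblast markers. It had 0.813 to 4.49 CPM post-molt and 0.134 to 1.24 CPM in the other pre-molt libraries. Its next highest value was in post-molt 9678, where fibroblast markers summed to 1083 CPM. Its lowest was in pre-molt C497, where they summed to 1250 CPM. The part of fibroblasts in the ITGA11 values was not tested. ITGA4 and ITGA9, receptor chains for VCAM1 and tenascin, summed to 0.355 to 3.81 CPM post-molt and 0.761 to 4.11 CPM pre-molt. A count of 0 was found in at least 1 library for 9 members, and an upper limit of 3 counts corresponds to 0.043 to 0.0968 CPM, for counting error only. ITGB8 had 230 reads in all and was not tested, since it did not pass the filter on low counts.

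The leukocyte integrins share ITGB2, which pairs with ITGAL, ITGAM, ITGAX and ITGAD. ITGB2 had 3.76 to 17.3 CPM post-molt and 10.9 to 16.2 CPM pre-molt (log2 fold change -0.39 ± 0.42, edgeR adjusted p = 0.830). ITGAL, its lymphocyte partner, had 16.4 to 45.4 CPM post-molt and 16.8 to 27.8 CPM pre-molt (0.43 ± 0.29, edgeR adjusted p = 0.662). ITGAD had 4.06 to 21.1 CPM post-molt and 5.56 to 11.04 CPM pre-molt (0.67 ± 0.44, edgeR adjusted p = 0.641). ITGAL, ITGAM, ITGAX and ITGB2 were all highest in post-molt library 5572, where the summed leukocyte markers were also highest, at 142 CPM. The other post-molt libraries had 57.9 to 66.6 CPM of these markers, and pre-molt libraries 48.1 to 110.0 CPM. ITGAD did not follow them, as it was highest in post-molt library 9678, which had the lowest post-molt sum of these markers (57.9 CPM). ITGAL had its lowest pre-molt value in library 5842, which had the highest pre-molt sum of these markers (110.0 CPM). The part of leukocytes in the leukocyte integrin values was not tested. ITGAM, ITGAX and ITGAD are similar genes, so reads that could not be placed uniquely may be missing from their counts. ITGAE, which pairs with ITGB7 on lymphocytes in epithelia, had 12.1 to 18.2 CPM post-molt and 12.6 to 19.4 CPM pre-molt, whereas ITGB7 had 0.710 to 7.42 CPM post-molt and 3.90 to 7.64 CPM pre-molt.

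**Figure D4:**
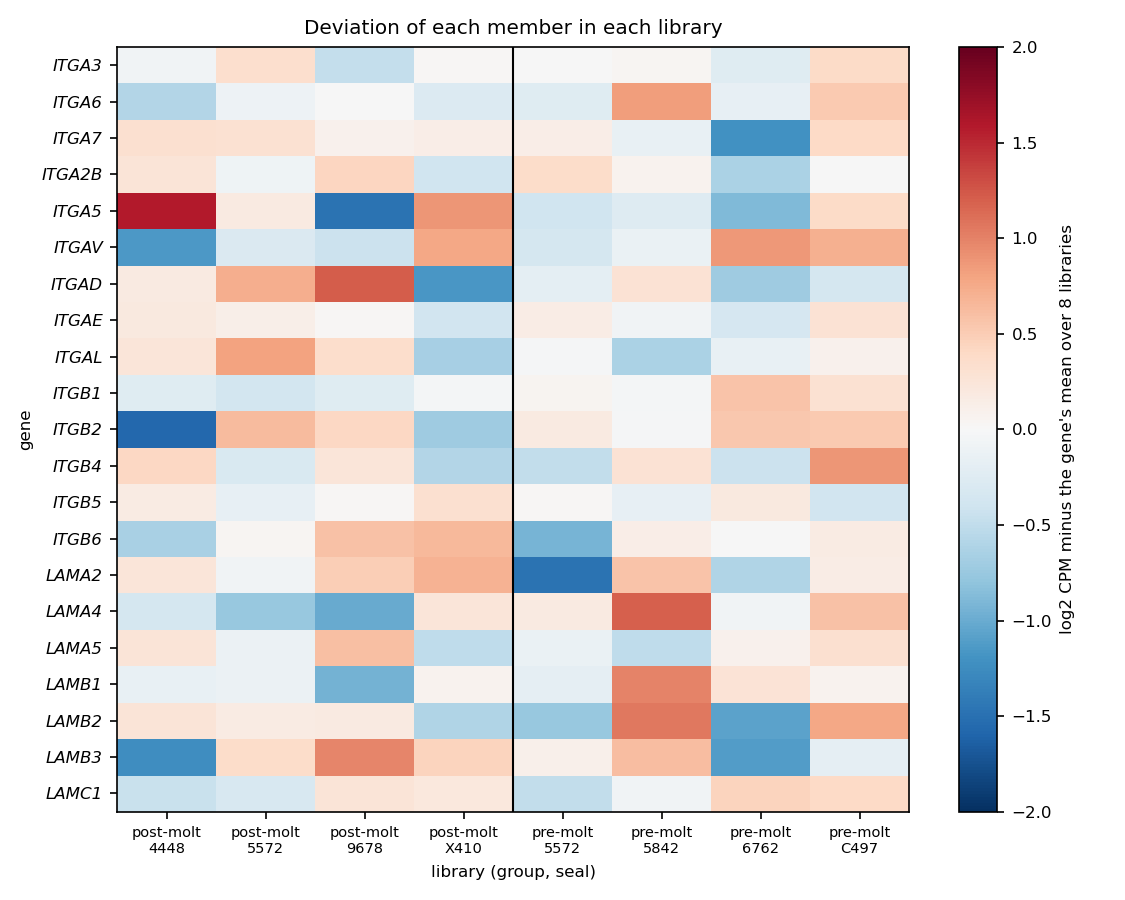
Deviation of the 21 members with a mean of 10 CPM or more from their own mean over the 8 libraries (colour, log2 units, from -1.57 to 1.59), with post-molt libraries left of the line and pre-molt libraries right of it. Red and blue mix on both sides of the line in most rows, and the strongest colours belong to single libraries.

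All 35 members together summed to 1055 ± 55.0 CPM post-molt and 1136 ± 166 CPM pre-molt (SD, n = 4 each), with ranges of 1009 to 1124 CPM and 918 to 1312 CPM that overlapped. Among pre-molt libraries, C497 held the highest value of 7 members and 5842 that of 6, while 5572 held that of 0. Between the libraries of seal 5572, 16 of the 21 members at 10 CPM or more were higher post-molt and 5 were lower, from -0.93 log2 units for LAMA4 to 1.41 for LAMA2. These are differences between a pair of libraries with no replicate. The share over all genes between this pair is not given here, so the count cannot be read as particular to the members.

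Genes that work with integrins and laminins were read from 4 lists, and edgeR called 0 genes in each. The first list held adaptors and linkers of integrins together with regulators and membrane partners such as RAP1A and CD151. Of its 48 tested genes, 3 were higher and 2 lower at an edgeR unadjusted p under 0.05, and DESeq2 called 3 higher and 1 lower after adjustment. Over all genes tested, 5.2% were higher and 6.22% lower at the same unadjusted p, and DESeq2 called 6.52%, so this list and the 3 below are to be read against those shares. The list included DAB2, an endocytic adaptor that binds integrin beta tails (16.4 ± 7.26 CPM post-molt and 45.8 ± 20.2 CPM pre-molt, log2 fold change -1.48 ± 0.35, edgeR adjusted p = 0.0837, DESeq2 adjusted p = 0.00351). It also held NEDD9, a docking protein of focal adhesions (12.7 ± 8.29 CPM post-molt and 3.998 ± 1.35 CPM pre-molt, 1.67 ± 0.47, edgeR adjusted p = 0.147, DESeq2 adjusted p = 0.020). The median log2 fold change of the list was -0.11, against -0.04 for all genes.

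Of 22 tested partners of laminin in the basement membrane, 1 was higher and 4 were lower at an edgeR unadjusted p under 0.05, with 1 higher and 3 lower in DESeq2 after adjustment and a median of -0.38. COL15A1, a collagen that links the basement membrane to the matrix around it, had 25.6, 20.6, 19.8 and 45.7 CPM post-molt, against 65.7, 115, 48.9 and 59.4 CPM pre-molt. All post-molt libraries lay below all pre-molt libraries. The log2 fold change was -1.37 ± 0.33 (edgeR adjusted p = 0.083, DESeq2 adjusted p = 0.00422). COL4A3, a chain of type IV collagen, averaged 7.88 ± 2.95 CPM post-molt and 18.9 ± 5.78 CPM pre-molt (-1.26 ± 0.35, edgeR adjusted p = 0.137, DESeq2 adjusted p = 0.0174). Smaller differences were seen in COL4A1, with 109 ± 17.8 CPM post-molt and 112 ± 34.1 CPM pre-molt (-0.03 ± 0.23, edgeR adjusted p = 0.978). COL4A2 had 112 ± 32.4 CPM post-molt and 145 ± 51.0 CPM pre-molt (-0.38 ± 0.29, edgeR adjusted p = 0.706).

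Of 23 tested laminin receptors other than integrins, a list with the dystrophin complex and the enzymes that glycosylate dystroglycan, 0 were higher and 2 lower at an edgeR unadjusted p under 0.05, and DESeq2 called 0 after adjustment. These were RPSA, a ribosomal protein also described as a laminin receptor (326 ± 71.2 CPM post-molt and 592 ± 360 CPM pre-molt, edgeR adjusted p = 0.344), and POMT1, a mannosyltransferase (34.4 ± 7.17 CPM post-molt and 46.4 ± 3.28 CPM pre-molt, edgeR adjusted p = 0.434). The median log2 fold change was 0.06. Of 20 tested ligands of other integrins, 0 were higher and 5 lower at an edgeR unadjusted p under 0.05, with 0 higher and 3 lower in DESeq2 after adjustment and a median of -0.25. THBS4, a thrombospondin of tendon and muscle matrix, averaged 29.6 ± 9.49 CPM post-molt and 64.9 ± 22.3 CPM pre-molt (-1.13 ± 0.28, edgeR adjusted p = 0.0955, DESeq2 adjusted p = 0.00991). TNC, which codes for tenascin-C of the muscle-tendon junction, averaged 2.35 ± 1.31 CPM post-molt and 9.45 ± 5.10 CPM pre-molt (-2.01 ± 0.53, edgeR adjusted p = 0.120, DESeq2 adjusted p = 0.00785). Of the 14 fibroblast markers, 6 were lower post-molt at an edgeR unadjusted p under 0.05. Their part in the values of these matrix genes was not tested.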

How the data were processed

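Poly-A RNA of 8 longissimus dorsi biopsies was sequenced, 4 post-molt and 4 pre-molt, 1 library each. NES reads were aligned by the authors with STAR, using the genome of the Hawaiian monk seal, and they deposited unscaled counts per gene as whole numbers. The labels also name bcl2fastq 2.20, R 3.4.3 and DESeq2 1.18.1. The authors kept 4 libraries per group, those with the largest numbers of uniquely placed reads. The strand setting of the counting is not given in the sources used here, so antisense genes cannot be told apart, and reads that align to several places are not counted, which makes near-identical genes uncertain. Of 24349 table rows, 11 carried no gene name (0.0173 to 0.0259% of counts) and were left out. Over 28 library pairs, chi-square divided by its degrees of freedom was at least 105.42, so no pair was a copy.

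Of 19401 genes with a count, 14312 passed filterByExpr at its defaults (count 10, total 15). The groups were compared in edgeR 4.0.16 (R 4.3.3) by its quasi-likelihood test, with TMM factors, Benjamini-Hochberg adjustment over all genes and a threshold of 0.05. The SE was derived from the fit. The 4 ratios of counts (0.5 added) were compared by an exact two-sided permutation test. DESeq2 1.42.0, limma-voom (limma 3.58.1), RLE factors, no factors, no filter and fits without libraries were alternatives. The edgeR test was tested on simulated data, in which changed genes with low counts were often missed. The level of recovery asked of that check was narrowed to genes at 10 CPM or more after its first run.

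The member genes and the lists (4 pathway and 10 marker lists) were chosen with earlier results of these data known. Values in every library are given for members with an unadjusted p under 0.05 or without overlap, the chains of the muscle integrin and muscle laminins, the chains of the 4 ratios and the 5 members with the highest mean CPM. Pathway lists are shown by the 2 genes with the smallest p, to which COL4A1 and COL4A2 were added. The values of every library for COL15A1, and the genes COL4A1 and COL4A2, were chosen after their values were seen. The same holds for the markers CIDEC, PLIN4, TNNT3, TNNI2, MYLPF, ATP2A1 and TNNT1. The values of 1 member are not reported here, although it is part of the counts and sums over the members.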

Additional observations from a re-analysis of the deposited data

Results flagged for a closer look

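In groups of 4 libraries, the highest or lowest value of a member was checked for its distance from the nearest other value, as a share of the group's range on the log2 CPM scale with 0.5 added to each count before scaling. The place of a count of 0 on this scale depends on the 0.5. Chance flags about 1 in 20 groups, and 9 of 74 groups stood above Dixon's critical value for 4 values. LAMB2 was low in post-molt library X410 (0.881), with 67.5 CPM against 115 to 123 CPM in the other post-molt libraries. ITGB6 was low in pre-molt library 5572 (0.848), with 22.9 CPM against 43.4 to 48.7 CPM. The LAMA4 to LAMA2 ratio was high in pre-molt library 5572 (0.849), at 3.0 against 1.29 to 1.46. The other members concerned were scarce. LAMB4 (0.943) and ITGA4 (0.889) had 0 counts in post-molt library 9678, ITGAX (0.872) in post-molt library 4448, ITGA4 (0.863) in pre-molt library 5572 and ITGA2 (0.849) in pre-molt library 5842. ITGA10 was low in pre-molt library 6762 (0.861), with 0.517 CPM against 1.41 to 1.67 CPM. Library 9678 had the fewest genes with a count (12676) and the most members at 0 (7).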

How the results depend on the processing

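No member was called in any of the 15 alternative fits, and all tested members kept the sign of their fold change with RLE factors, with no filter on low counts and in DESeq2. Genes called over all genes, 31 higher and 19 lower in edgeR, were 10 lower with total counts and no factors, 128 and 97 with no filter, 335 and 316 in DESeq2, 55 and 39 in limma-voom, 3 and 2 without both libraries of seal 5572, and 0 and 0 without pre-molt 5842 and post-molt 9678. With 1 library left out they were 7 to 28 higher and 2 to 21 lower. Members at an unadjusted p under 0.05, 0 higher and 2 lower in edgeR, were 1 lower with no factors, 1 higher and 1 lower without pre-molt 5842 and post-molt 9678, and 0 to 2 higher and 1 to 4 lower with 1 library left out. Members without overlap, 0 in each direction, were 1 lower with RLE factors, 2 higher and 1 lower without pre-molt 5842 and post-molt 9678, 3 lower without seal 5572, and 0 to 1 higher and 0 to 2 lower with 1 library left out. The cause of these shifts was not tested, although fits without libraries hold fewer samples.

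With no factors, the median log2 fold change of all genes moved to 0.10 (-0.04 with TMM factors), and the sign turned for ITGA1 (0.090), ITGB3 (0.083), ITGA3 (0.065) and ITGAE (0.13). Without pre-molt 5842 and post-molt 9678 it turned for ITGA1 (0.014), LAMA5 (-0.17), ITGB3 (0.50), LAMB2 (0.11), ITGA8 (-0.35) and ITGA3 (0.062). Without seal 5572 it turned for ITGA11 (-0.0022) and ITGAM (-1.41), and in limma-voom for LAMB4 (-0.16), LAMB2 (0.0045), ITGA10 (-0.89) and ITGAM (-0.59). With 1 library left out, fold changes whose sign turned in at least 1 fit ranged from -0.42 to 0.31 for ITGA1, -0.90 to 0.29 for ITGA9, -0.058 to 0.31 for LAMA5, -1.26 to 0.42 for ITGB3, -0.35 to 0.16 for ITGB4, -0.066 to 0.24 for ITGA2B, -0.012 to 0.73 for LAMB4, -0.50 to 0.16 for LAMB2, -1.14 to 0.46 for ITGA10, -0.58 to 2.06 for ITGA11, -1.06 to 0.45 for ITGAM, -0.91 to 0.069 for ITGAX, -0.21 to 0.053 for ITGA3 and -0.12 to 0.090 for ITGAE. Of the members described library by library, fold changes that kept their sign ranged from 0.24 to 0.87 for LAMA2, -1.23 to -0.62 for LAMA4, -0.74 to -0.28 for LAMB1, -0.32 to -0.032 for LAMC1, 0.37 to 1.22 for ITGA5, -0.69 to -0.29 for ITGA6, 0.076 to 0.53 for ITGA7, -0.52 to -0.33 for ITGB1 and 0.070 to 0.26 for ITGB5. The difference in the ITGA5 to ITGA7 ratio ranged from -0.24 to 0.71. The other 3 ratios kept their sign in every alternative, and that without pre-molt 5842 and post-molt 9678 was chosen after seeing the data. No paired analysis was possible because 1 seal alone had a library at both times. The 13 tested members under 10 CPM had wider intervals than the 21 others.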
